A study of Mus musculus with 23 samples.

Results

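Fos, Fosb, Jun, Junb, Arc, Egr1, Egr3, Npas4, Nr4a1 and Ier2 are immediate early genes, and they were followed by Ensembl gene ID through RNA-seq of mouse hippocampal neurons and their axons. The count tables hold 55487 gene IDs, and all 10 genes were among them. Neurons of C57Bl/6 pups of postnatal day 1 were plated on one side of microfluidic chambers whose other side collects axons, and every culture, controls included, received magnetic nanoparticles at 5 µg/ml. In stretched cultures a gradient of 50 T/m acted on the particles from day in vitro 1 to 6, and in control cultures the gradient was null. RNA came from the axonal side of control (n = 5) and stretched (n = 6) cultures and from the cell-body side of control (n = 6) and stretched (n = 6) cultures, called soma here. The cell-body side is labelled as total culture, so it holds every cell type that grew there, and no label says whether libraries of a group came from separate litters or culture days. The p-values therefore measure the spread between these libraries, part of which may be technical.

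Immediate early genes are transcribed within minutes of a stimulus, without new protein synthesis. In neurons, calcium entry and MAP kinase signalling act on factors already bound at their promoters, among them CREB, SRF with its ELK partners, and MEF2. Most encode transcription factors that then switch on later genes, such as those for neuropeptides and growth factors, and Arc encodes a protein of the synapse itself. Npas4 is known for its selectivity for calcium entry, while Fos, Jun, Egr1 and Ier2 also respond to growth factors, stress and cell handling, in glia as well as in neurons.

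The promoters are shown because they are where such signals act. A link between their motifs and the levels of the genes was not tested. RefSeq windows (GRCm38.p6) were matched for 6 of the 10 genes, Fos, Fosb, Jun, Junb, Npas4 and Nr4a1. The 250 bases upstream of the start site are printed for Nr4a1 (chr15:101266596-101266845, plus strand), Fos (chr12:85473640-85473889, plus strand), Junb (chr8:84978749-84978998, minus strand) and Jun (chr4:95052223-95052472, minus strand), 5′ to 3′ along the gene. Capitals mark the cAMP-response half-site TGACG, on either strand, which CREB family proteins can bind.
Nr4a1: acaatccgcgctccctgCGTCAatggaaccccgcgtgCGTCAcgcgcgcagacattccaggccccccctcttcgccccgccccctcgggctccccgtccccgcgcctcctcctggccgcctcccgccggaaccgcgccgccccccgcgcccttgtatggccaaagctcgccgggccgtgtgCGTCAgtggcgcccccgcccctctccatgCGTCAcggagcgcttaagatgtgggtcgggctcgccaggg
Fos: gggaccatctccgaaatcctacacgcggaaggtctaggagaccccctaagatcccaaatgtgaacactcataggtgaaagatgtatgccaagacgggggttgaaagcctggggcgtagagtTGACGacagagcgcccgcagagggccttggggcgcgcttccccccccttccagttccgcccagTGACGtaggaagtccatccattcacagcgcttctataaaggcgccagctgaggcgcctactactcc
Junb: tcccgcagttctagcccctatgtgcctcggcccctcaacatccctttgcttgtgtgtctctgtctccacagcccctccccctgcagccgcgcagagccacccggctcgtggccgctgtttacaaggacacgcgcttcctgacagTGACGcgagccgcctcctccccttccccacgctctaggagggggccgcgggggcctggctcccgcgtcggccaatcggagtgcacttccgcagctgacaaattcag
Jun: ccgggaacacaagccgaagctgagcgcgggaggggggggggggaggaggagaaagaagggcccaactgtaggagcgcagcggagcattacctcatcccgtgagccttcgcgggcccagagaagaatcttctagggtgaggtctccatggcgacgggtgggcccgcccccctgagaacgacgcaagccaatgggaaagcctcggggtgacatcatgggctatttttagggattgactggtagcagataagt

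The half-site was found in 5 of the 6 windows, against 17.8% of 32851 windows of the same length in the RefSeq table, which were not matched for base content. Nr4a1 held 4 matches, at 233, 213, 69 and 40 bases upstream of the start site. Fos held 2, at 129 and 66 bases, Npas4 held 2, at 179 and 169 bases, and Fosb and Junb held 1 each, at 60 and 106 bases. Jun held none. The Nr4a1 window holds no annotated exon but lies within the span of longer GENCODE transcripts of the gene. The EGR motif GCGNGGGCG, searched on both strands, was in the Fosb and Nr4a1 windows and in 4.70% of all windows. The full cAMP-response element TGACGTCA, the AP-1 motif TGANTCA and the CArG box, the SRF motif, were in 0 of the 6, and in 1.55%, 6.75% and 1.47% of all windows. These matches describe letters in the sequence and not bound sites. Full-site matches contain the half-site, so those searches overlap. Only the 250 bases upstream were searched, so sites farther away and the promoters of Arc, Egr1, Egr3 and Ier2 are not covered.

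Depth was between 16.4 and 43.0 M counts per library (M stands for 1000000). A floor of 3 counts came to between 0.0697 and 0.183 CPM, which are counts per M counts of the library. No pair of libraries held identical counts. Axonal libraries had counts for 4263 to 10242 genes and soma libraries for 22452 to 24575. Soma libraries fell into 2 sets of 6 by the Y-linked gene Eif2s3y, at 24.7 to 28.7 CPM in replicates 1, 2 and 3 of control and 1, 2 and 8 of stretched cultures, and at 5.39 to 13.2 CPM in replicates 4, 5 and 6 of both. The labels do not name this division, and none of the 10 genes was used to make it. Earlier results of these data were known, however, when the division, the 10 genes and the lists of related genes below were chosen. The p-values and counts between the sets are therefore descriptive and not an independent test. Since each condition holds 3 libraries of each set, stretch and set can be told apart. Summed neuronal markers (14 genes, among them Map2, Syn1 and Slc17a7) were at 5888 to 6836 CPM across the 12 soma libraries.

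The genes spanned a wide range of levels in soma. Per kilobase of the longest GENCODE transcript, the median over 12 libraries was 73.4 CPM for Jun, 52.1 for Junb, 34.5 for Ier2 and 31.6 for Fos. It was 6.91 for Npas4, 6.74 for Egr1, 5.97 for Egr3, 5.68 for Nr4a1 and 5.19 for Arc. Fosb, at 0.226 CPM per kilobase, lay below all others, and its highest library (0.645) was under the lowest library of any other gene (1.25, Npas4). Neighbours above Fosb in this order overlapped over libraries, so their order is not resolved beyond the spread. The genes also differed in how widely they ranged: the highest library was 21.6 times the lowest for Npas4, 10.2 times for Arc, 9.98 times for the sparsely counted Fosb and 8.29 times for Nr4a1, but 1.61 times for Jun.

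The widest differences between soma libraries ran along the replicate number and the Eif2s3y level rather than along the stretch. With condition as covariate, Npas4 was 6.62, Arc 5.68 and Nr4a1 5.37 times higher in the 6 libraries with low Eif2s3y, and Junb, Ier2, Fos and Egr1 were higher by between 1.73 (Ier2) and 2.15 times (Egr1). Jun, Egr3 and Fosb did not pass the test. In this model, 7 of the 10 genes differed and all 7 were higher (edgeR quasi-likelihood F test, Benjamini-Hochberg adjusted p under 0.05), where 12.6% of 16751 tested genes were called, 5.74% higher and 6.85% lower.

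**Figure D1:**
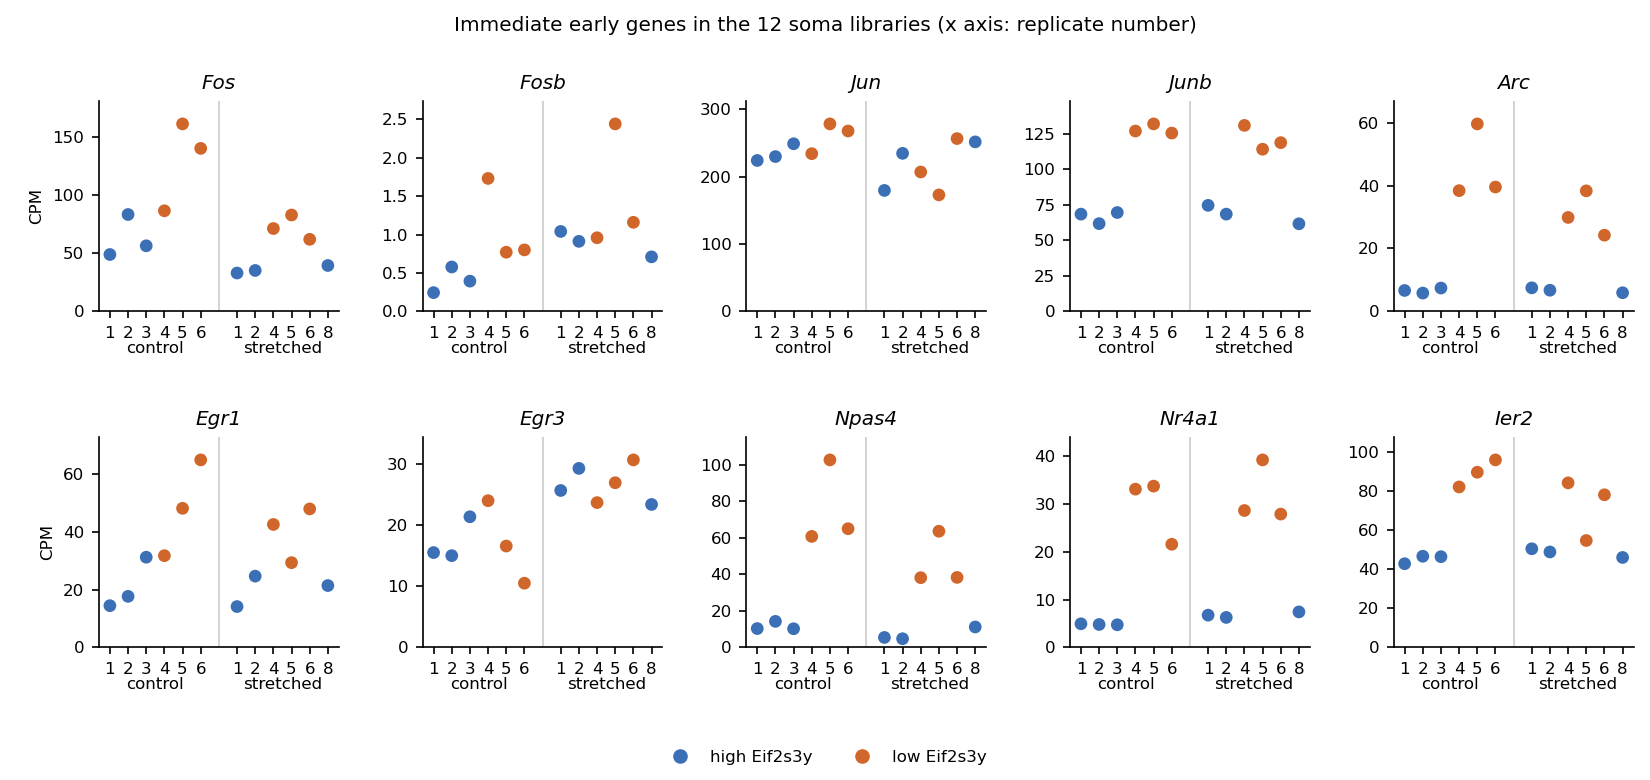
CPM of each gene (y axis, linear from 0) in the 12 soma libraries (x axis, replicate number within control and stretched), 1 point per library, coloured by the Eif2s3y set. The 6 libraries with low Eif2s3y lie above all 6 others for Npas4, Arc, Nr4a1, Junb and Ier2, while Egr3 separates mainly by condition.

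Npas4 (ENSMUSG00000045903, chr19:4984355-4990316, minus strand) encodes a transcription factor that shapes inhibitory synapses. Its level in control soma replicates 1 to 6 was 10.3, 14.2, 10.2, 60.7, 103 and 65.0 CPM. In stretched soma replicates 1, 2, 4, 5, 6 and 8 it was 5.45, 4.75, 38.2, 63.6, 38.3 and 11.2 CPM. Replicates 4, 5 and 6 were high in both conditions, and the lowest of them was 2.68 times the highest of the other 6. The means were 9.36 ± 3.62 CPM with high and 61.4 ± 23.6 CPM with low Eif2s3y (SD, n = 6 each), a log2 ratio of 2.73 (SE 0.235, edgeR adjusted p = 1.37e-05).

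Arc (ENSMUSG00000022602, chr15:74669083-74672570, minus strand), whose protein takes part in removing glutamate receptors from synapses, followed the same division. Control soma replicates 1 to 6 had 6.65, 5.82, 7.42, 38.4, 59.6 and 39.5 CPM, and stretched soma replicates 1, 2, 4, 5, 6 and 8 had 7.49, 6.72, 29.8, 38.3, 24.2 and 5.93 CPM. The 6 libraries with high Eif2s3y lay close together, at 6.67 ± 0.709 CPM (SD, n = 6), and those with low Eif2s3y at 38.3 ± 12.03 CPM (SD, n = 6). The log2 fold change was 2.51 (SE 0.169, edgeR adjusted p = 1.68e-07).

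Nr4a1 (ENSMUSG00000023034, chr15:101254269-101274795, plus strand), which encodes an orphan nuclear receptor, had 4.94, 4.79, 4.73, 33.1, 33.7 and 21.6 CPM in control soma replicates 1 to 6. In stretched soma replicates 1, 2, 4, 5, 6 and 8 it had 6.74, 6.27, 28.6, 39.2, 27.9 and 7.42 CPM. Replicates 4, 5 and 6 were again high in both conditions without overlap, and the log2 fold change was 2.43 (SE 0.143, edgeR adjusted p = 4.07e-08).

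The AP-1 partners and Ier2, a nuclear protein of the early growth response, moved less. Junb (chr8:84974484-84978718, minus strand) ranged from 61.6 to 74.6 CPM with high and from 114 to 132 CPM with low Eif2s3y, a log2 ratio of 0.90 (SE 0.0756, edgeR adjusted p = 1.63e-06). Ier2 ranged from 42.8 to 50.4 and from 54.6 to 95.8 CPM, a log2 ratio of 0.79 (SE 0.113, edgeR adjusted p = 0.000265). These 2 genes, with Npas4, Arc and Nr4a1, are the 5 whose ranges did not overlap between the sets, against 1.63% of tested genes that were higher without overlap. Fos (chr12:85473890-85477273, plus strand) ranged from 33.0 to 83.3 and from 62.0 to 161 CPM and so overlapped, at a log2 ratio of 1.04 (SE 0.159, edgeR adjusted p = 0.000716). Egr1, a zinc-finger factor induced by MAP kinase signalling, also overlapped, at 14.1 to 31.2 and 29.3 to 64.8 CPM and a log2 ratio of 1.11 (SE 0.235, edgeR adjusted p = 0.00884).

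The other 3 genes did not pass between the sets. Jun had a mean of 228 ± 26.1 CPM with high and 236 ± 40.1 CPM with low Eif2s3y (SD, n = 6 each; edgeR adjusted p = 0.782). Egr3, a relative of Egr1, had 21.7 ± 5.64 and 22.0 ± 7.31 CPM (SD, n = 6 each; edgeR adjusted p = 0.946). Fosb, at 0.647 ± 0.303 and 1.31 ± 0.656 CPM (SD, n = 6 each), had a log2 ratio of 1.08 (edgeR adjusted p = 0.0552). In the exons, 7.28% of the bases of Jun lie opposite Junos and 7.52% of those of Junb opposite Prdx2, and the strand setting of the counting is not given in the sources used here, so a share of their reads could come from the partner genes.

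The replicate number itself was tested over the 10 soma libraries whose number occurs in both conditions (1, 2, 4, 5 and 6). It was called for 6 of the 10 genes, against 0.969% of 15584 tested genes. These were Npas4 (edgeR adjusted p = 0.000168), Nr4a1 (0.000319), Arc (0.00112), Junb (0.0178), Egr1 (0.0318) and Fos (0.0391). Only 3 were called without number 1, without number 2 and without number 6. With the Eif2s3y set as a further covariate, edgeR called 0 of the 10 genes and 0 of 15584 genes, with 1 of the 10 (Npas4, unadjusted p = 0.0194) and 353 genes at an unadjusted p under 0.05. A difference among numbers within a set was therefore not detectable in these 10 libraries.

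**Figure D2:**
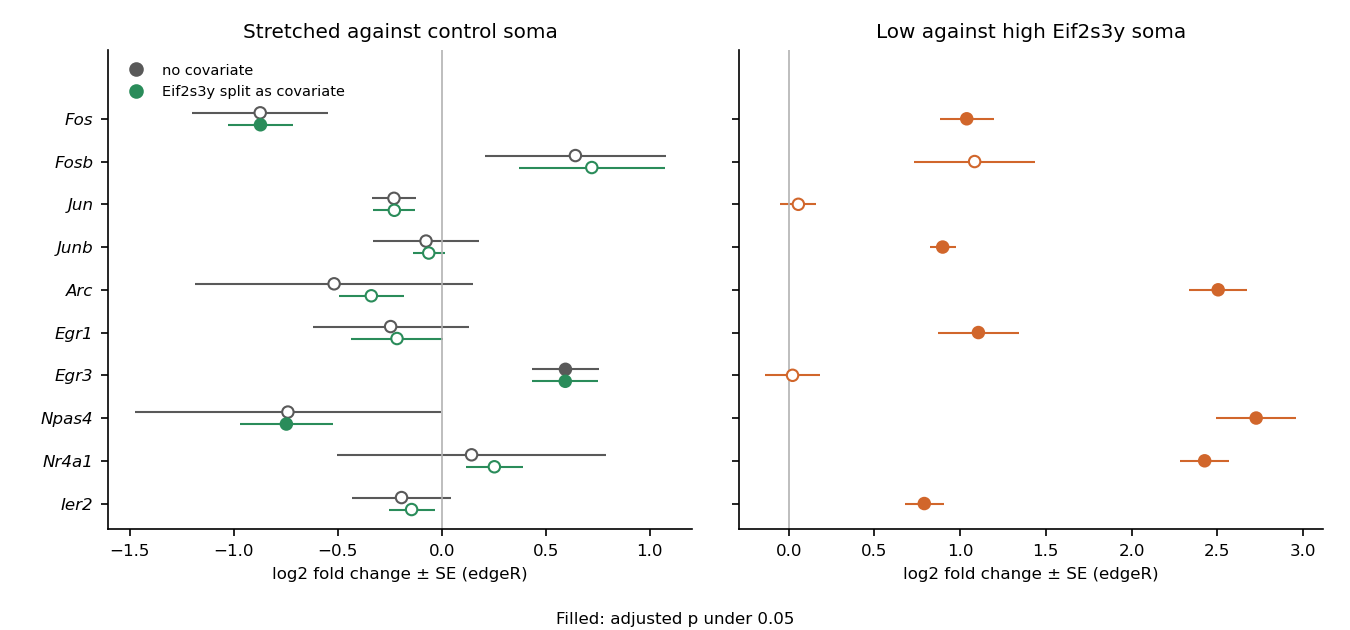
edgeR log2 fold change ± SE (x axis) of each gene (y axis) for stretched against control soma, without and with the Eif2s3y set as covariate (left), and for low against high Eif2s3y (right). Filled points have an adjusted p under 0.05: the right panel holds 7, led by Npas4 at 2.73, and the left panel holds Egr3 alone without the covariate, and Egr3, Fos and Npas4 with it.

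Related genes moved along with them between the sets. Of 36 other immediate early genes, 15 were higher with low Eif2s3y and 0 lower, next to 5.74% and 6.85% of all tested genes. Their median log2 ratio was 0.50, where the median of all tested genes was 0.013. The largest among those called were Dusp5 (2.29, SE 0.612, edgeR adjusted p = 0.0229) and Ptgs2 (2.13, SE 0.396, edgeR adjusted p = 0.00249). They encode a MAP kinase phosphatase and the inducible prostaglandin synthase. Dusp5 was sparsely counted, at 0.248 ± 0.2499 CPM with high and 1.42 ± 1.55 CPM with low Eif2s3y (SD, n = 6 each). Ptgs2 was also low, at 0.998 ± 0.584 and 4.39 ± 1.54 CPM (SD, n = 6 each). Nr4a2, a relative of Nr4a1, rose from 50.1 ± 17.1 to 126 ± 37.0 CPM (SD, n = 6 each; edgeR adjusted p = 0.00027). Fosl1, Csrnp1 and Dusp6 were higher by 1.49, 1.18 and 0.96 on the log2 scale, with Fosl1 at only 0.808 ± 0.389 and 2.24 ± 1.00 CPM (SD, n = 6 each).

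Of 17 genes known to follow activity later, 11 were higher with low Eif2s3y and 0 lower, next to 5.74% and 6.85% of all tested genes. Their median log2 ratio was 0.80. Nptx2, which gathers AMPA receptors at synapses, was at 3.79 ± 1.48 CPM with high and 15.8 ± 9.34 CPM with low Eif2s3y (SD, n = 6 each; edgeR adjusted p = 0.00271). Inhba, Stac, Pcsk1, Scg2 and Kcna1 were higher by between 0.60 (Kcna1) and 1.68 (Stac) on the log2 scale. Stac was sparsely counted, at 0.550 ± 0.508 and 1.78 ± 1.03 CPM (SD, n = 6 each). Of 21 factors upstream of the immediate early genes, 4 were higher and 1 lower, next to 5.74% and 6.85% of all tested genes, with a median log2 ratio of 0.25. Called were Crem, the inducible member of the CREB family, at 0.80 (edgeR adjusted p = 0.00115), Crebbp at 0.35, Mef2c at 0.32, Hdac5 at 0.23 and Crtc3 at -0.33. Crem is also on the list of late activity genes and is counted in both lists. Of 30 genes of calcium and MAP kinase signalling, 7 were higher and 3 lower, among them Braf at 0.62, Rps6ka2 at 0.57, Rps6ka3 at 0.50 and Camk2d at -0.66.

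Cell type markers moved between the same sets. All 8 astrocyte markers were called lower with low Eif2s3y, where 6.85% of all tested genes were called lower and 5.74% higher. Their summed level was 5120 to 6310 CPM against 10726 to 14075 CPM with high Eif2s3y. Gfap, the filament protein of astrocytes, was at 4038 ± 351 against 8366 ± 1075 CPM (SD, n = 6 each; edgeR adjusted p = 1.42e-06), and Gja1 and Aqp4 fell by 1.37 and 1.18 on the log2 scale. Of 14 neuronal markers, 4 were higher (Slc17a6 by 0.64, Dlg4 by 0.46, Prox1 by 0.44 and Map2 by 0.25) and 1 lower (Tubb3, -0.26), and their sum was 5888 to 6403 CPM against 6335 to 6836 CPM. Microglial markers summed to 43.9 to 64.9 against 46.1 to 106 CPM, oligodendrocyte lineage markers to 39.8 to 67.3 against 47.9 to 74.1 CPM with Sox10 at 0 in all 12 libraries, and fibroblast and vessel markers to 162 to 265 against 140 to 259 CPM. The part of the cell mixture in the immediate early gene levels was not tested. In bulk RNA, fewer cells of a type and less RNA per cell cannot be told apart.

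**Figure D3:**
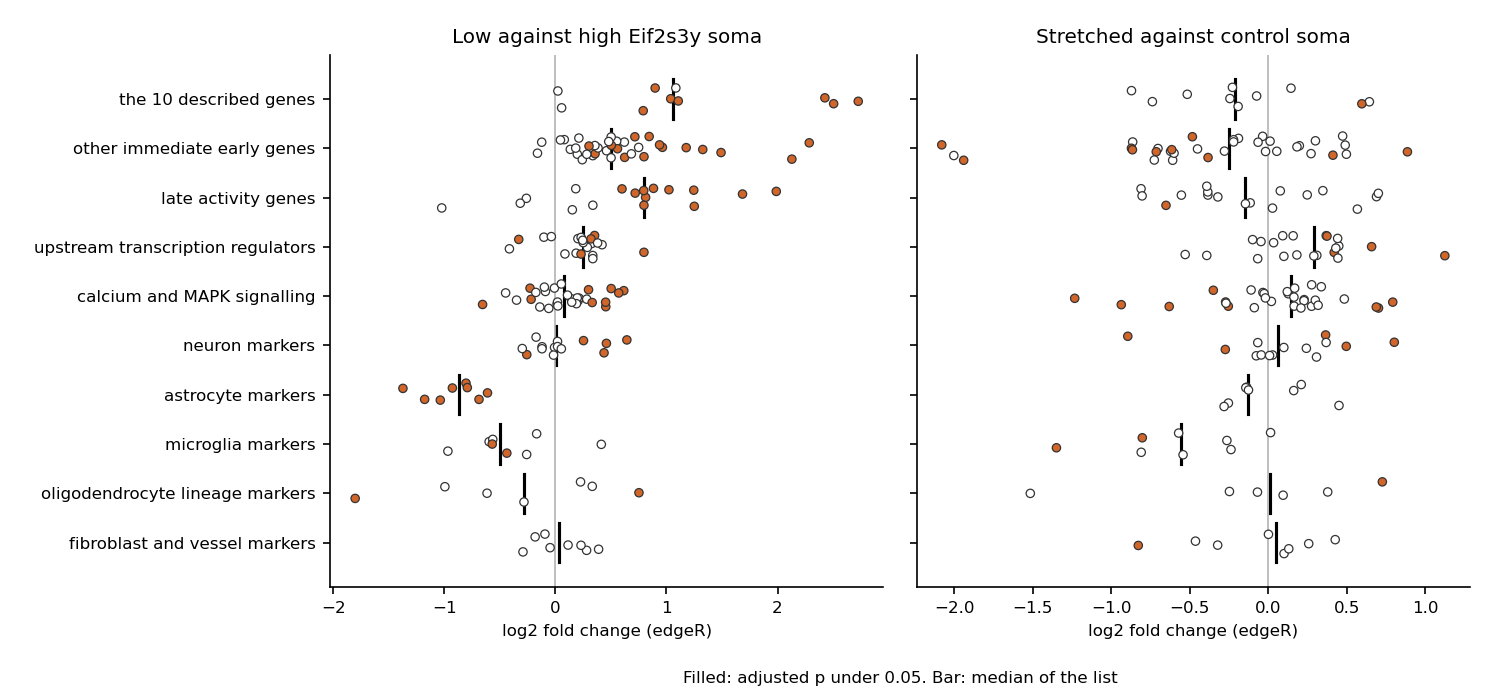
edgeR log2 fold change (x axis) of every tested gene of each list (y axis) between the Eif2s3y sets (left) and with stretch (right) in soma. Filled points have an adjusted p under 0.05 and bars are list medians: the immediate early and late activity lists lie to the right of 0 in the left panel, with medians of 1.06 for the 10 genes, 0.50 and 0.80, and astrocyte markers to the left, at -0.87.

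**Figure D4:**
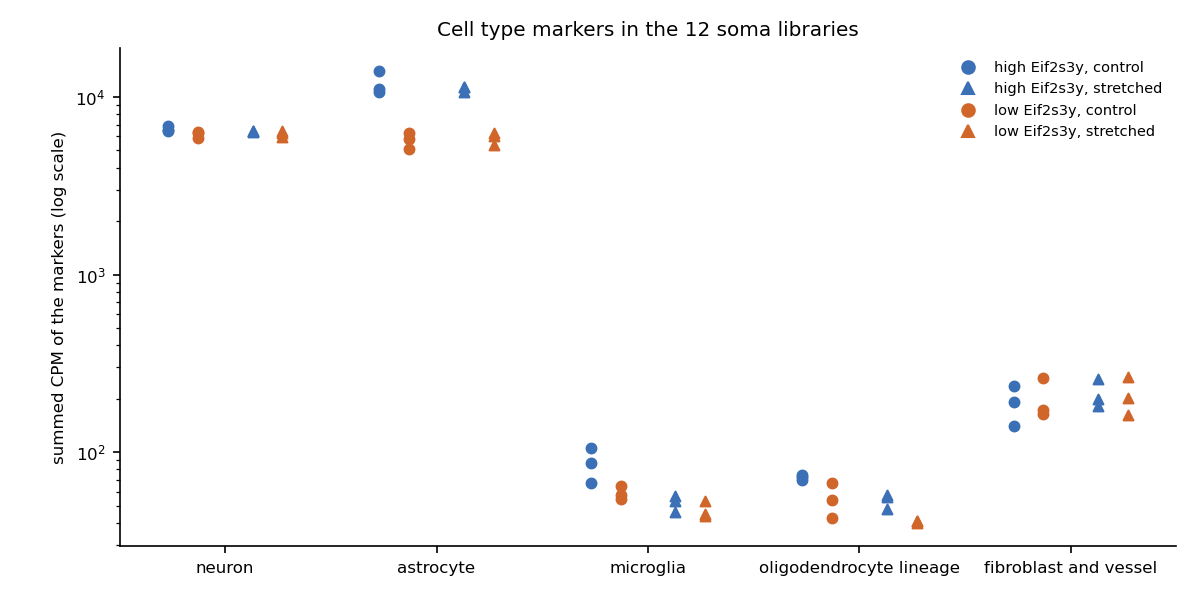
Summed CPM (y axis, log scale) of 5 cell type marker lists (x axis) in the 12 soma libraries, 1 point per library, coloured by Eif2s3y set and shaped by condition. Astrocyte markers separate by set, at 5120 to 6310 CPM with low and 10726 to 14075 CPM with high Eif2s3y, and overlap between conditions.

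Stretch changed 1 of the 10 genes in soma, Egr3, which rose 1.51-fold. The test called 25.1% of 15632 genes, 11.2% higher and 13.9% lower, so a count of 1 is not above the background. Fos had a lower mean in stretched soma but did not pass without regard to the Eif2s3y set. The median log2 ratio of the 10 genes was -0.21 and that of all tested genes -0.028.

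Egr3 (ENSMUSG00000033730, chr14:70077203-70082614, plus strand) was at 15.5, 14.99, 21.3, 24.0, 16.6 and 10.5 CPM in control soma replicates 1 to 6. Stretched soma replicates 1, 2, 4, 5, 6 and 8 had 25.6, 29.3, 23.7, 26.9, 30.6 and 23.4 CPM. Control replicate 4 alone reached into the stretched range, and without it the groups did not overlap. The means were 17.1 ± 4.82 and 26.6 ± 2.95 CPM (SD, n = 6 each), a log2 ratio of 0.59 (SE 0.163, edgeR adjusted p = 0.0178). It passed in all 12 fits that left out 1 library, at adjusted p from 0.00215 to 0.0435.

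Fos was at 48.9, 83.3, 56.4, 86.5, 161 and 140 CPM in control soma replicates 1 to 6 and at 33.0, 35.2, 71.3, 82.9, 62.0 and 39.5 CPM in stretched soma replicates 1, 2, 4, 5, 6 and 8. Conditions overlapped, but within each Eif2s3y set every stretched library lay below every control library. The means were 96.1 ± 45.3 and 54.0 ± 21.0 CPM (SD, n = 6 each), a log2 ratio of -0.87 (SE 0.327, edgeR adjusted p = 0.0664). It passed in 3 of the 12 fits without 1 library, those without control replicate 1, without control replicate 3 and without stretched replicate 5, at adjusted p of 0.0481, 0.0444 and 0.0448. DESeq2 (adjusted p = 0.0498) and limma (adjusted p = 0.0401) also called it. With edgeR and offsets for transcript length and GC content it did not pass (log2 ratio -0.68, adjusted p = 0.201), nor without both soma libraries numbered 4 (adjusted p = 0.069).

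With the Eif2s3y set as a covariate, 33.9% of the 15632 genes were called, 16% higher and 17.9% lower, and 3 of the 10 genes passed. Fos kept its log2 ratio of -0.87 at a smaller error (SE 0.157, edgeR adjusted p = 0.00237), and Egr3 stayed at 0.59 (SE 0.159, edgeR adjusted p = 0.0105). Npas4 had a log2 ratio of -0.75 (SE 0.223, edgeR adjusted p = 0.022), against -0.74 (SE 0.737, edgeR adjusted p = 0.487) without the covariate. Without control soma replicate 4 this fit called 4, with Fosb (log2 fold change 0.98, edgeR adjusted p = 0.0342) as the addition.

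Each set was also fitted alone, with 3 libraries per condition. Fos had log2 fold changes of -0.81 with high (edgeR adjusted p = 0.0108) and -0.87 with low Eif2s3y (edgeR adjusted p = 0.272). For Egr3 they were 0.59 (edgeR adjusted p = 0.0277) and 0.64 (edgeR adjusted p = 0.276), and for Npas4 -0.70 (edgeR adjusted p = 0.122) and -0.74 (edgeR adjusted p = 0.272). The fit on low Eif2s3y called 0 of 15718 genes with edgeR, with 2739 at an unadjusted p under 0.05, so its adjusted values say little of single genes. The difference in stretch effect between the sets was tested as an interaction, which called 0 of 15632 genes with edgeR, 1169 at an unadjusted p under 0.05, and none of the 10 genes had an unadjusted p under 0.05. The lowest was that of Arc, at 0.0678, for log2 fold changes of 0.017 with high and -0.60 with low Eif2s3y.

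The other 7 genes did not pass with stretch in soma, with or without the set as covariate. Without it, Jun had a log2 ratio of -0.23 (edgeR adjusted p = 0.114), Fosb of 0.64 (0.287) and Arc of -0.52 (0.599). Egr1 had -0.25 (0.662), Ier2 -0.19 (0.583), Junb -0.075 (0.852) and Nr4a1 0.14 (0.891). The values of Junb, Ier2, Egr1, Arc and Nr4a1 took the other sign in some alternative fits. With the covariate and offsets for transcript length and GC content together, Junb (log2 ratio 0.35, edgeR adjusted p = 0.0206) and Nr4a1 (0.43, edgeR adjusted p = 0.0442) passed.

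Among related genes, 10 of 34 other immediate early genes changed with stretch in soma, 2 higher and 8 lower, next to 25.1% of all tested genes (11.2% higher and 13.9% lower), so the count is near the background. Jund, an AP-1 partner that is usually present without a stimulus, fell from 15.9 ± 8.53 to 3.87 ± 1.54 CPM (SD, n = 6 each; edgeR adjusted p = 0.00496), and Ier5 fell from 12.3 ± 4.83 to 3.29 ± 0.90 CPM (edgeR adjusted p = 0.00293). Ier3 and Dusp1, the latter a phosphatase of MAP kinases, fell by 0.87 and 0.87 on the log2 scale. Fosl2, a relative of Fos, rose from 41.4 ± 18.8 to 78.5 ± 13.8 CPM (edgeR adjusted p = 0.0188), and Plk2 rose by 0.41 on the log2 scale.

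Of 21 upstream factors, 4 rose and 0 fell with stretch: Crtc2 from 4.42 ± 2.61 to 9.88 ± 0.81 CPM (SD, n = 6 each), and Crtc1 by 0.66, Crebbp by 0.42 and Arnt2 by 0.37 on the log2 scale. Crtc1 and Crtc2 encode coactivators of CREB, and Crtc1 was at 175 ± 40.2 CPM in control and 283 ± 23.5 CPM in stretched soma (SD, n = 6 each; edgeR adjusted p = 0.00444). Of 30 genes of calcium and MAP kinase signalling, 3 rose and 6 fell, among them Camk2d at 0.79, Braf at 0.70, Ppp3r1 at 0.69, Rps6ka1 at -1.23, Map2k2 at -0.94 and Hras at -0.63. Of 17 late activity genes 1 was called, Tac1, lower by 0.65 on the log2 scale (edgeR adjusted p = 0.0499). These counts too are read against the 25.1% of all genes called. With the Eif2s3y set as covariate, where 33.9% of genes were called, 3 of the other immediate early genes were higher and 12 lower, 8 upstream factors were higher and 1 lower, 8 signalling genes were higher and 6 lower, and 1 late activity gene was higher and 3 lower.

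Beside these, neuronal markers summed to 5888 to 6836 CPM in control and 5984 to 6467 CPM in stretched soma. Of the 14, 3 were higher (Slc32a1 by 0.80, Gad1 by 0.50 and Syt1 by 0.36 on the log2 scale). Another 2 were lower (Rbfox3 at -0.90 and Tubb3 at -0.27). All marker counts here are next to 11.2% of all tested genes called higher and 13.9% lower. Astrocyte markers summed to 5120 to 14075 and 5354 to 11400 CPM, with 0 of 8 called. With the Eif2s3y set as covariate 1 was higher, where 33.9% of all tested genes were called. Microglial markers summed to 54.4 to 106 and 43.9 to 57.0 CPM, with C1qa and C1qb, complement genes of microglia, lower by 1.35 and 0.80 on the log2 scale. Oligodendrocyte lineage markers summed to 42.7 to 74.1 and 39.8 to 57.3 CPM, with Mog higher by 0.73 on the log2 scale (edgeR adjusted p = 0.0156). Fibroblast and vessel markers summed to 140 to 261 and 162 to 265 CPM, with Dcn lower by 0.83 on the log2 scale (edgeR adjusted p = 0.0191). Their part in the stretch values of the 10 genes was not tested.

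The genes with the most similar pattern were sought among the 9527 genes whose soma mean reached 10 CPM. The measure was the root-mean-square distance between centred log2(CPM + 1) profiles over the 12 soma libraries, with CPM scaled by TMM here. Nearest to the mean of the 10 genes were Btg2 (0.21), Dusp6 (0.21), Tob2 (0.22), Synj2 (0.23) and Zdbf2 (0.23). Arc and Nr4a1 were among each other's nearest, at 0.34, and Arc was nearest but one to Npas4, at 0.45. Sln was the nearest gene to both Arc (0.31) and Npas4 (0.36), and Fndc9 was among the nearest 3 to Arc, Npas4 and Nr4a1. Fos lay nearest to Tnfrsf12a (0.23), Pcp4l1 (0.28) and Bdnf (0.30), Egr1 to Rem2, Zyx and Vgf, Junb to Btg2 (0.14), and Ier2 to Junb (0.17). Jun and Egr3, which hardly varied with the sets, lay nearest to Usp39 (0.054) and Adam19 (0.12). These are descriptions over libraries that share sets and conditions.

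In axonal libraries most values of these genes were either 0 or above 10 CPM. The exceptions were 1 count of Junb in stretched axon replicate 5, 2 counts of Egr1 in stretched axon replicate 4 and 2 of Ier2 in stretched axon replicate 2. Of 110 pairs of a gene and an axonal library, 42 had 3 counts or more, or 38.2%, and their levels ran from 11.5 to 718 CPM with a median of 169 CPM. The 8 genes with 10 to 100 CPM in soma were detected in 36 of 88 pairs, or 40.9%, and all 7162 genes at that soma level in 36.6% of theirs. Detection of these genes was thus near that of others with the same soma level. Stretched axon replicate 1 had none of the 10 genes and control axon replicate 1 had 1, Arc, while control axon replicate 5 had 8, with counts for 4263, 4867 and 10242 genes in all.

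Fosb and Egr3 had 0 counts in all 11 axonal libraries. Arc had 136 CPM in control axon replicate 1 and 80.1 CPM in control axon replicate 5, and 0 counts in the other 3 control and all 6 stretched axonal libraries. Npas4 had 250 CPM in control axon replicate 5, and 208 and 41.8 CPM in stretched axon replicates 5 and 6, and 0 counts in the other 8. Nr4a1 was detected in 2 of 5 control and 2 of 6 stretched libraries, at 41.9 to 148 CPM. Fos was detected in 3 of 5 control axonal libraries, at 11.5 to 60.6 CPM, and in 4 of 6 stretched ones, at 144 to 275 CPM. The remaining libraries of both groups had 0 counts of Fos, so the groups overlapped at 0. Jun was detected in 2 and 4 libraries of control and stretched axons, Junb in 3 and 3, Egr1 in 4 and 3 and Ier2 in 3 and 4.

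**Figure D5:**
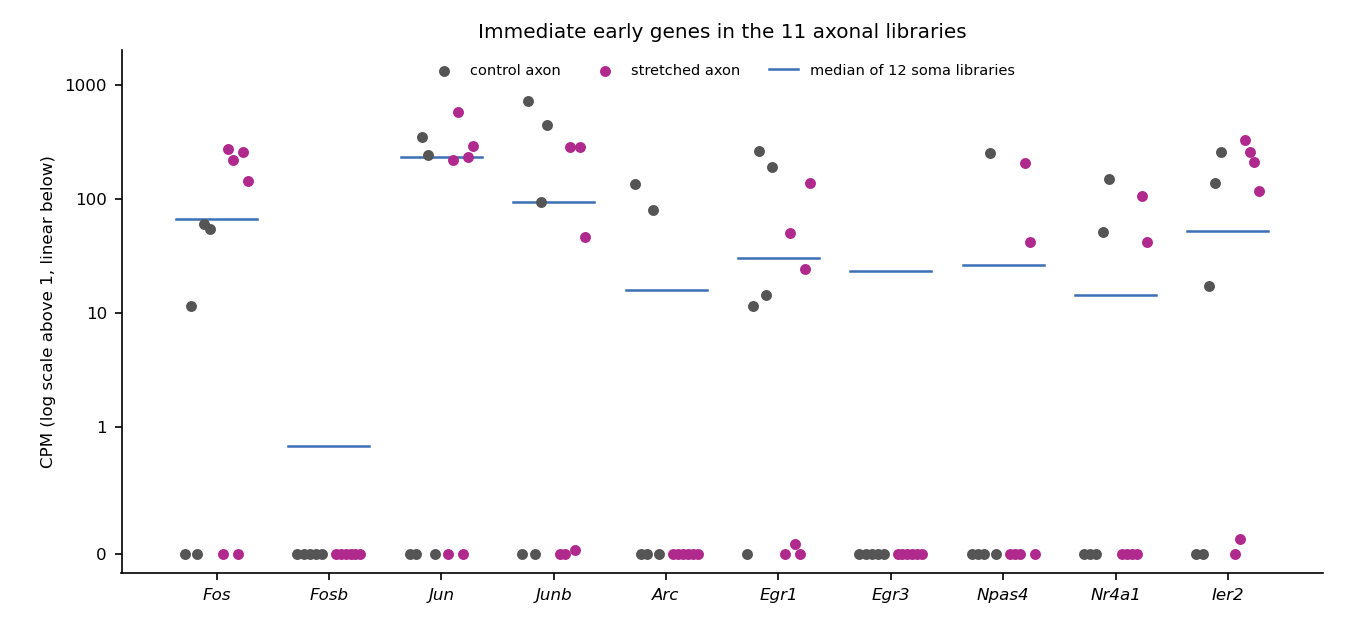
CPM of each gene (x axis) in the 11 axonal libraries, 1 point per library, by condition (y axis, log scale above 1 CPM and linear below); the line is the median of the 12 soma libraries. Points fall at or near 0 or above 10 CPM, and Fosb and Egr3 are at 0 in every axonal library.

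For stretch in axons, 5 of the 10 genes passed the filter on low counts (Fos, Jun, Junb, Egr1 and Ier2), and edgeR called 0 of the 5 and 0 of 4947 genes, or 0%, with 46 genes and 0 of the 5 at an unadjusted p under 0.05. DESeq2 called 18 genes and limma 8, with 0 of the 10 genes in either. The log2 ratio of Fos was 2.50 with an SE of 2.69, and those of the other 4 lay between -1.30 and 0.89 with SEs of 2.44 to 2.61. Differences of several fold were therefore not detectable at this spread.

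Against soma, Egr3 was lower in axons of both conditions, at least 135-fold in control and at least 191-fold in stretched cultures, taking the mean floor of 3 counts per library for the axons (edgeR adjusted p = 2.96e-05 and 1.88e-05). Arc was lower in stretched axons, at least 135-fold (edgeR adjusted p = 0.000163), while in control axons, where 2 libraries held it, it did not pass (edgeR adjusted p = 0.946). Fosb was at least 8.64-fold lower in stretched axons (edgeR adjusted p = 1.85e-05). It did not pass the filter on low counts in control cultures. The lower bounds for Egr3, Arc and Fosb cover counting error only. The lowest axonal level of the 10 genes at 3 counts or more was 11.5 CPM, above the highest soma level of Fosb, 2.44 CPM. Genes with 10 to 100 CPM in soma were detected in only 36.6% of their axonal pairs. Arc did not pass the filter for stretch in axons, so its difference between control and stretched axons was not tested. The genes called lower made 1 of 9 tested genes in control, against 34.4% of 14728 genes called lower, and 3 of 10 in stretched cultures, against 28.4% of 14466. None of the 10 genes was called higher in axons, where 0.856% and 0.843% of genes were. The control count rose to 2 when 1 of control axon replicates 1, 2, 3 or 7 was left out and to 3 without control axon replicate 5.

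The axonal libraries are labelled as pure axonal, and neuronal markers summed to 1299 to 4049 CPM in them. Astrocyte markers summed to 4651 to 25629 CPM in control and 4790 to 19604 CPM in stretched axonal libraries, next to 5120 to 14075 CPM in soma libraries. Of the microglial markers Cx3cr1, Csf1r, Aif1, C1qa and P2ry12 were at 0 in all control axonal libraries, and P2ry12 in all stretched ones. Microglial markers summed to 0 to 494 CPM over both groups, oligodendrocyte lineage markers to 0 to 438 CPM with Cspg4, Olig2 and Sox10 at 0 in all, and fibroblast and vessel markers to 0 to 1110 CPM with Cldn5 at 0 in all. Which cells the axonal reads of Fos, Jun or Ier2 came from was not tested.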

How the data were processed

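RNA-seq was deposited for 23 libraries. The authors' files hold raw read counts per Ensembl gene ID, and the count files end with totals of reads in no gene (3.18 to 7.94%), ambiguous (4.37 to 5.94%) and not uniquely aligned (5.43 to 13.4%), which were left out. Per the submitters' processing notes, FastQC 0.11.9, MultiQC 1.12, fastp 0.20.1, STAR 2.7.08a, HTSeq 0.13.5 and mm10 were used; strand setting, annotation release and use of the molecular identifiers are not given in the sources used here. Libraries were amplified from poly(A) RNA with a low-input kit, per the labels, so floors of 3 counts cover counting error only.

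Counts were tested with edgeR 4.0.16 in R 4.3.3 (filterByExpr, TMM, robust quasi-likelihood F test, Benjamini-Hochberg over all genes tested, threshold 0.05), fitted on the 2 groups compared, or on soma libraries for replicate number and for the Eif2s3y set (division at the largest gap), with condition as covariate. The scripts were tested on simulated data. CPM uses the total counts of genes. Coordinates and lengths are from GENCODE M21 (GRCm38) and promoters from RefSeq. The 10 genes, the lists and the division were chosen with earlier results of these data known. All 10 genes are named. Of the other immediate early genes, those called among the 6 highest and 6 lowest fold changes are named, and of each other list those with the 3 highest and the 3 lowest fold changes among the called genes, of either sign, beside the nearest genes by profile. Libraries were also fitted with DESeq2 1.42.0, limma 3.58.1, other scalings, no filter, a replicate block, the Eif2s3y set as covariate or each set alone, offsets for length and GC content (mgcv 1.9.3), and without each library.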

Additional observations from a re-analysis of the deposited data

Results flagged for a closer look

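Of 35 sets of values of a gene in a group that were checked for a library far from the others, 5 had one. The cut-off is meant to flag about 1 in 20 sets of normally distributed values. Axonal values, many of them 0, are not so distributed, so the count is not compared with that rate. Fosb was at 1.73 CPM in control soma replicate 4, next to 0.80 CPM in the nearest library, and at 2.44 CPM in stretched soma replicate 5, next to 1.16 CPM. Egr1 was at 137 CPM in stretched axon replicate 8, next to 50.2 CPM. Npas4 was at 250 CPM in control axon replicate 5, with 0 in the other 4, and at 208 CPM in stretched axon replicate 5, next to 41.8 CPM.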

How the results depend on the processing

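Stretch in soma called 1 of the 10 genes. Alternatives gave 2 (DESeq2 and limma: Egr3 and Fos), 3 (Eif2s3y set as covariate), 2 (high Eif2s3y alone), 0 (low Eif2s3y alone), and 1 to 2 without 1 library; those added after seeing the data gave 4 (covariate without control soma replicate 4) and 5 (covariate with length and GC offsets: Egr3, Fos, Npas4, Junb and Nr4a1). The deviations of soma libraries with the same number correlated at 0.286, 0.275, 0.160, 0.0736 and 0.310 (numbers 1, 2, 4, 5 and 6), so the numbers were not taken as pairs, and 2 of the 5 correlated best with their own number. With the replicate block 3 of the 10 genes were called (Egr3, Fos and Npas4) and 3209 of all 15632 genes in place of 3929, and with block and offsets 4 of the 10. The block left 0 in axons, 1 and 3 in the comparisons of axon with soma. The control axon comparison gave 2 with no filter and 1 to 3 without 1 library. Replicate number called 3 to 6 without 1 number and, in an alternative added after seeing the data, 0 with the set as covariate. The set comparison gave 7 to 8 and stretched axon against soma 3 in every fit run, and stretch in axons 0. Where the count moved, the cause was not tested, apart from fewer libraries.

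The sign of some log2 ratios turned. With stretch, Junb was at 0.35 with offsets (0.37 with block and offsets, 0.35 with covariate and offsets) and at 0.036 with high Eif2s3y alone, and between -0.18 and 0.054 without 1 library. Ier2 was at 0.18, 0.20 and 0.23 in the same 3 offset fits and at 0.098 with high Eif2s3y alone. Without 1 library Nr4a1 lay between -0.19 and 0.47 and Egr1 between -0.44 and 0.033, and Arc was at 0.017 with high Eif2s3y alone. Tubb3 was at 0.0025, 0.015 and 0.0056 in the offset fits and Gadd45g at 0.031 with block and offsets. Between the sets, without 1 library, Egr3 lay between -0.10 and 0.13 and Jun between -0.012 and 0.13. Fosb was sparsely counted, at most 2.44 CPM in soma. Axonal libraries had 16.4 to 43.0 M counts and soma libraries 20.5 to 30.7 M, but axonal libraries had counts for fewer genes, 4263 to 10242. What limits the axonal values was not tested.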
